A study of Gossypium hirsutum with 6 samples.

Results

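Gene models at similar levels in cotton leaf and fiber and at a lower level in the ovule are described here, and 150 of the 77357 models in the expression table belong to them. They were selected on the measured values themselves. All 4 leaf and fiber libraries had to reach 5 FPKM (fragments counted per model, scaled to model length and to the mapped fragments of the library), and the leaf mean had to lie between 0.5 and 2 times the fiber mean. Of 9544 models that reached the minimum, 5042 were also within that ratio. These were ranked by a score, the lower of the leaf and fiber means plus 1 divided by the ovule mean plus 1, and the 150 highest were kept. Because leaf, ovule and fiber values chose the models, their differences between tissues are given as a description, and calls are printed beside the share of all models called.

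The mRNA libraries came from untreated, greenhouse-grown plants of a single accession of allotetraploid cotton, Gossypium hirsutum TM-1. There were 3 tissues with 2 biological replicates each, namely young leaves, ovules on the day of flowering (0 days post anthesis, DPA) and fibers of 14 DPA. How many plants or bolls went into a library is not given in the sources used here. Fibers were dissected from bolls, and how pure they were was not tested. Ovule and fiber libraries differ in age as well as in tissue (0 and 14 DPA), so stage and tissue cannot be told apart between them.

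A cotton fiber is a single epidermal cell of the ovule that leaves its neighbours behind and elongates greatly, laying down a primary wall and later a thick cellulose wall. The ovule on the day of flowering holds many dividing and differentiating cell types, and the young leaf is an expanding organ that builds up photosynthesis. Leaf and fiber are therefore separate in origin, and the models described below are those whose transcript levels the leaf and the fiber share while the ovule, from which the fiber grows, has less. In an allotetraploid most genes have a homoeologous copy in each of the A and D subgenomes.

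The identifiers begin with Cotton_A (40134 models) or Gorai (37223 models), and 0 of them matched an entry of the RefSeq gene table for this species. No source used here pairs them with gene names, so no role is given to any model, and the labelled tissues could not be checked against marker genes. Relative depth, read from whole-number ratios between FPKM values, ran from 0.704 in leaf replicate 1 to 1 in fiber replicate 1, and summed FPKM from 927473 to 1014584. Median log2 change over all 42214 models tested was 0.48 for ovule against leaf and -0.42 for fiber against ovule on the deposited scale, so the typical model was higher in the ovule, in contrast to the 150 models. With median-of-ratios scaling these medians were 0.00 and -0.08. That scaling divides each library by its median ratio over models, so values near 0 follow from the method.

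The 150 models were at moderate levels in leaf and fiber and mostly at low levels in the ovule. Library medians over the 150 models averaged 17.7 ± 1.30 FPKM for leaf, 1.84 ± 0.221 FPKM for ovule and 19.1 ± 0.679 FPKM for fiber (SD, n = 2). Leaf replicates had medians of 16.8 and 18.6, ovule replicates 1.99 and 1.68, and fiber replicates 19.6 and 18.6. The leaf and fiber medians thus overlapped, and both ovule libraries lay far below them. In bulk tissue, fewer cells that carry a transcript and less RNA per cell cannot be told apart.

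**Figure D1:**
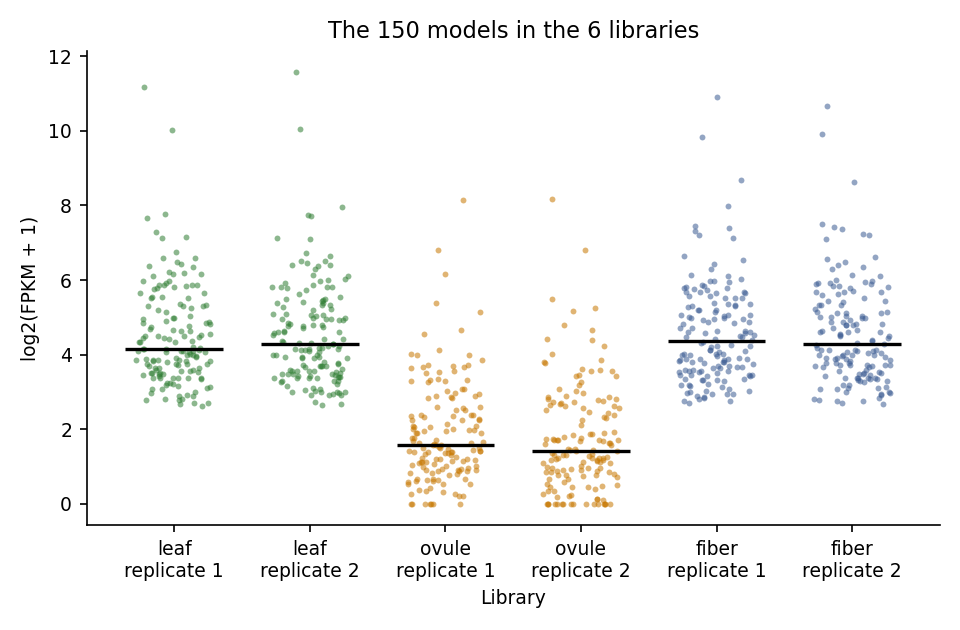
Levels of the 150 models in each of the 6 libraries on the log2(FPKM + 1) scale, 1 point per model, with black lines at the library medians. Library medians were 16.8 and 18.6 FPKM for leaf, 1.99 and 1.68 FPKM for ovule and 19.6 and 18.6 FPKM for fiber, and points at 0 occur only in the ovule, where the minimum of 5 FPKM did not apply.

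"Low in the ovule" is relative for many of them. The mean ovule level was under 1 FPKM in 39 models, from 1 to under 5 FPKM in 38 and 35 models on either side of 2 FPKM, from 5 to under 10 FPKM in 19, and 10 FPKM or more in 19. The median ovule level of all models tested was 4.84 FPKM, and 38 of the 150 lay above it. In leaf and fiber all 150 lay above the corresponding medians of 3.34 and 2.98 FPKM, as the minimum of 5 FPKM requires. The lower of the leaf and fiber means was under 10 FPKM in 42 models, from 10 to under 20 in 45, from 20 to under 50 in 39, from 50 to under 100 in 18 and 100 FPKM or more in 6.

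In every one of the 150 models all 4 leaf and fiber libraries lay above both ovule libraries. A score of 3.17 or more nearly fixes this separation, so nothing is read from it. In 148 models the lowest leaf or fiber library exceeded the highest ovule library by over 2-fold, and in 80 by over 5-fold. The exceptions to the 2-fold gap were Cotton_A_12105 and Cotton_A_26724, at 1.05 and 1.8 times, and the latter is named here because of these values. Among the 146 models above 0 in the ovule, the lower of the leaf and fiber means was 6.86 times the ovule mean in the median model, with a range from 3.32 to 217 times.

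The highest scores belonged to models with little or no signal in the ovule. Cotton_A_15214, of rank 1, had 62 and 69.2 FPKM in leaf, 0.699 and 0 FPKM in ovule, and 46.4 and 56.0 FPKM in fiber. Its leaf libraries were both above its fiber libraries, and its ovule signal came from 2 recovered reads in all. On the log2(FPKM + 1) scale it was 5.67 lower in the ovule than in leaf, written as a change of -5.67 (SE 0.25, limma adjusted p 7.15e-06). The rule ranked models on this difference, so the p-value is a description only.

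Among Gorai models, the best rank was held by Gorai.008G093200 (rank 6), at 20.4 and 29.6 FPKM in leaf, 21.6 and 14.9 FPKM in fiber and 0 in both ovule libraries. Gorai.010G069000 (rank 8) had 38.3 and 38.0 FPKM in leaf, 1.505 and 1.47 FPKM in ovule, and 56.3 and 59.4 FPKM in fiber. In the latter model replicates nearly coincided in every tissue and fiber lay above leaf, with 2320 recovered reads over the leaf and fiber libraries. Its log2 change was -3.98 for ovule against leaf and 4.56 for fiber against ovule (SE 0.079, limma adjusted p 6.30e-07 and 4.91e-07). As the ranking used these differences, nothing is read from the p-values.

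Only 4 models were listed at 0 in both ovule libraries, and the reads behind them differed widely. Cotton_A_30535 (rank 2) had 53.7 and 29.7 FPKM in leaf and 32.4 and 33.6 FPKM in fiber from 23 recovered reads, and Gorai.008G093200 had 10 recovered reads. Cotton_A_32904 (rank 35) had 7.37 and 5.66 FPKM in leaf and 7.79 and 8.72 FPKM in fiber from 167 recovered reads. Cotton_A_15918 (rank 43) had 9.38 and 9.54 FPKM in leaf and 5.45 and 5.79 FPKM in fiber from 577 recovered reads. Cotton_A_32904 and Cotton_A_15918 were named after their values had been seen. For the pair with 167 and 577 reads, the 0 in the ovule stands against many reads in the other tissues, whereas the 10 reads of Gorai.008G093200 were spread as 2 and 3 in leaf and 3 and 2 in fiber.

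At the other end, Cotton_A_14061 closed the list at rank 150 with a score of 3.174. It had 68.6 and 62.9 FPKM in leaf, 15.3 and 15.1 FPKM in ovule, and 50.3 and 50.7 FPKM in fiber. Just outside, the next model in the ranking had a score of 3.164. This model, Gorai.005G230700 had 149 and 148 FPKM in leaf, 43.4 and 49.2 FPKM in ovule, and 147 and 152 FPKM in fiber. No gap in the scores marks the edge of the list.

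The most abundant members kept a high ovule level. Cotton_A_34343 (rank 48) had 2313 and 3039 FPKM in leaf, 281 and 289 FPKM in ovule, and 1906 and 1614 FPKM in fiber. Cotton_A_08910 (rank 27) had 1030 and 1055 FPKM in leaf, 111 and 110 FPKM in ovule, and 917 and 970 FPKM in fiber. These were also the members with the highest ovule levels, and in both of them the leaf libraries lay above the fiber libraries. Together they held between 34.1% and 46.2% of the summed FPKM of the 150 models in a library. Of a library's summed FPKM, all 150 models made up 0.845% ± 0.0403 for leaf, 0.111% ± 0.00158 for ovule and 0.807% ± 0.00455 for fiber (SD, n = 2).

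Calls across all models were made with limma at an adjusted p under 0.01 and a change over 2-fold on the log2(FPKM + 1) scale. Of the 150 models, 141 were called lower in ovule than in leaf, where 15.7% of all tested models were, and 141 higher in fiber than in ovule, against 16.8%. The same 141 models were called in both comparisons, which 2.18% of all tested models were (920 models). The rule used these contrasts, so nothing is read from the counts. The log2 change over the 150 models ranged from -5.67 to -1.58 for ovule against leaf, with a median of -2.55, and from 1.67 to 5.36 for fiber against ovule, with a median of 2.62. Both comparisons share the ovule libraries.

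All 9 models without a call had few reads and an ovule value that rested on 1 library. Each of them was at 0 in exactly 1 ovule library, had from 1 to 5 recovered ovule reads and had from 10 to 77 recovered reads over the 4 leaf and fiber libraries. The SE of their log2 change was between 0.75 and 1.53, whereas the called members had a median SE of 0.13 and a highest SE of 0.55. Cotton_A_12105 was an example, with 21.2 and 82.2 FPKM in leaf, 0 and 20.2 FPKM in ovule, and 44.9 and 31.0 FPKM in fiber. Its single ovule read was worth nearly as much as the leaf replicate 1 value, and its log2 change against leaf was -3.22 (SE 1.53, limma adjusted p 0.109).

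Whole reads were recovered for 120 of the 150 models, and these numbers are lower bounds. The median was 556.5 reads over the leaf and fiber libraries, with a range from 10 to 12032, and 26 reads over the ovule libraries. The members under 100 reads numbered 13, of which 4 were called in both comparisons. Among these were Gorai.008G093200 and Cotton_A_30535, with 10 and 23 reads and an SE of 0.23 and 0.26. Both were at 0 in both ovule libraries, so their ovule values showed no scatter, and a small SE does not mean many reads. All 107 members with at least 100 recovered reads and all 30 without recovered reads were called in both.

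**Figure D2:**
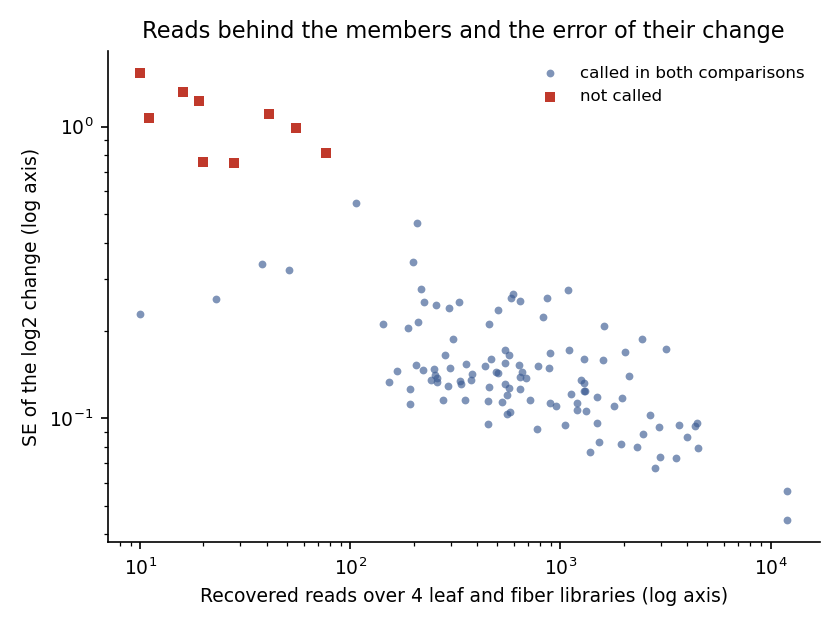
SE of the log2 change from limma against recovered reads summed over the 4 leaf and fiber libraries, both on log axes, for the 120 models with recovered reads, 1 point per model. The 9 models without a call (red squares) lie between 10 and 77 reads with an SE of 0.75 to 1.53, above all called models.

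In 14 members 1 read was worth more than 1 FPKM in fiber replicate 1, which is 11.7% of the 120 with recovered reads. Among all 5042 models at similar leaf and fiber levels the share was 3.99% of 3410. FPKM per read falls with the length of a gene model, and its median was nearly equal in both sets, at 0.105 and 0.102 FPKM. Of the 10 highest ranks, 3 were held by such models.

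Leaf and fiber levels were close by choice, and neither tissue was the higher throughout. Fiber was above leaf by the mean in 83 models and leaf above fiber in 67. Both fiber libraries exceeded both leaf libraries in 66 models, the reverse held in 52, and the libraries overlapped in 32. The fiber to leaf ratio had a median of 1.07, and lay between 1/1.5 and 1.5 in 105 models, above 1.5 in 25 and below that range in 20. Fiber was above leaf in 55.3% of the 150 and in 57.9% of the 5042 models.

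The extremes sat at the limits of the allowed ratio. Gorai.001G110300 had 25.5 and 30.3 FPKM in leaf, 3.01 and 5.49 FPKM in ovule, and 50.2 and 58.7 FPKM in fiber, a fiber to leaf ratio of 1.95. Gorai.009G215100 had 19.2 and 18.9 FPKM in leaf, 5.00 and 5.17 FPKM in ovule, and 37.9 and 36.1 FPKM in fiber, a ratio of 1.94. In both of these, fiber was clearly the highest tissue. At the opposite end, Cotton_A_30468 had 61.7 and 59.5 FPKM in leaf, 1.82 and 0.973 FPKM in ovule, and 29.9 and 30.8 FPKM in fiber, a ratio of 0.501. Cotton_A_20371 had 59.9 and 54.7 FPKM in leaf, 10.5 and 5.39 FPKM in ovule, and 29.5 and 28.2 FPKM in fiber, a ratio of 0.504. In these the fiber level stood midway between ovule and leaf.

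**Figure D3:**
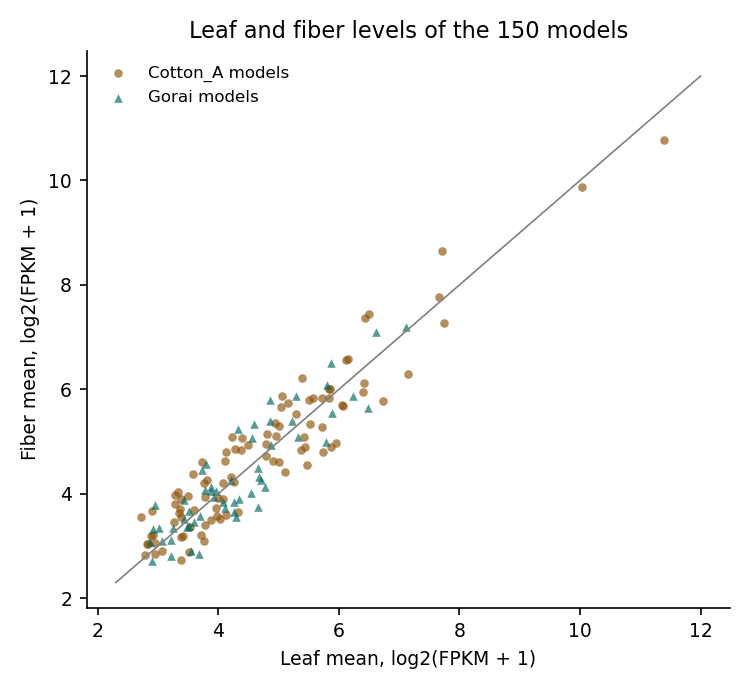
Mean fiber level against mean leaf level of the 150 models on the log2(FPKM + 1) scale, 1 point per model, with circles for Cotton_A and triangles for Gorai models and the line of equal levels in grey. The points form a narrow band because the ratio was limited to between 0.5 and 2, with 83 models above the line and 67 below it.

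By limma, 0 of the 150 models were called between fiber and leaf at over 2-fold, where 25.6% of all tested models were higher and 25.3% lower in fiber. The limit on the ratio fixes this count. At any fold, 45 of the 150 had an adjusted p under 0.01 (24 higher and 21 lower in fiber), against 67.5% of all tested models. The limit on the ratio lowers this count too, so nothing is read from it. The 2-fold rule of the study with an unadjusted P from an analysis of variance also called 0 of the 150. It called 16267 of all 42214 tested models.

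As a description of agreement between replicates, models were also chosen in some libraries and read in the others. The lists so chosen are not the 150 models. The rule was run on the replicate 1 libraries alone, with 1 library per tissue, and its 150 models were read in the replicate 2 libraries. Their score had a median of 4.68 there, against 4.69 in the libraries that chose them, and it exceeded 1 in 149 models and 2 in 143. With the replicates exchanged, the median was 4.52 against 5.39, and the score exceeded 1 in 141 models and 2 in 138. The leaf to fiber ratio stayed between 0.5 and 2 in 133 and 122 of the 150 models in the libraries that did not choose them. These limits were also those of the choice, while a score of 2 lay below the scores chosen. Losses of the ratio and of the score are therefore not compared. Over all models that entered these rankings, 6.45% and 6.17% exceeded 2 in the libraries that did not choose. Each choice shared 123 models with the 150, and the choices shared 102 with each other.

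A number of the models that lost the high score had a high value per read. A score can fall through a lower leaf or fiber value as well as through a higher ovule value. Of the 12 chosen in replicate 2 that scored 2 or less in replicate 1, 9 were worth over 1 FPKM per read, although such models were 20 of the 150 chosen. All 9 that scored 1 or less were among them. Of the 7 chosen in replicate 1 that scored 2 or less in replicate 2, 3 were worth over 1 FPKM per read, against 11 of the 150 chosen. With 1 library per tissue on each side, no test was possible.

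**Figure D4:**
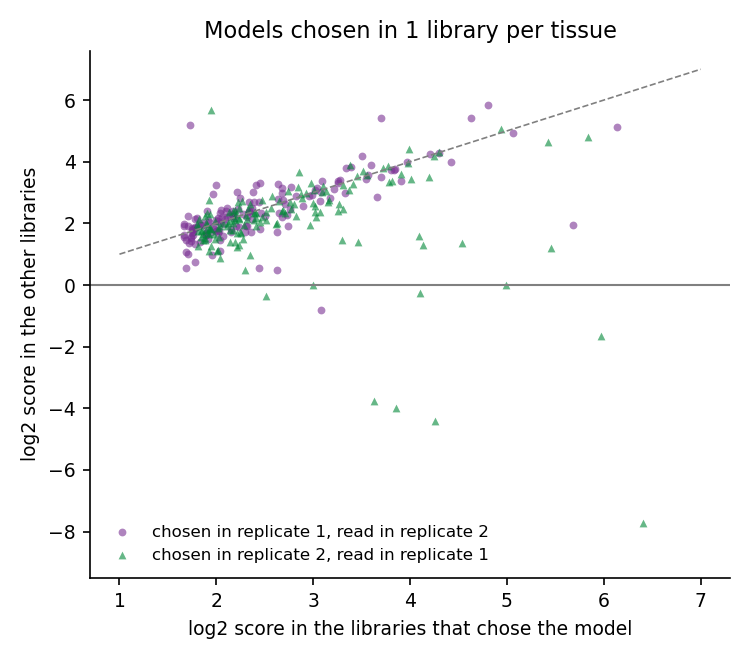
Score on a log2 axis in the libraries that did not choose a model against its score in those that did, for the 150 models chosen in replicate 1 (circles) and the 150 chosen in replicate 2 (triangles), with equal scores as a dashed line. Most points lie along the dashed line, and those at or below 0 (1 circle and 9 triangles) had a score of 1 or less in the other libraries.

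The 150 models came from the upper tail of a distribution that leaned the other way. Over the 5042 models at similar leaf and fiber levels, which were chosen without the ovule values, the median score was 0.616. The ovule mean lay above both other means in 61.4% of them and below both in 23.6%. By limma, 1058 of the 5042 (21.0%) were called higher in ovule than in both leaf and fiber, against 18.1% of all tested models. A further 313 (6.21%) were called lower than in both, against 2.18%. The minimum of 5 FPKM applied to leaf and fiber and not to the ovule.

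This order depended on the scaling between libraries. Quantile normalization gave 784 models higher and 586 lower in the ovule than in both, out of 5736 at similar leaf and fiber levels. Median-of-ratios scaling gave 436 and 710 out of 5791, which turned the order round. The median log2 changes of the 150 models, whose sign the choice fixes, were -2.92 and 2.93 with quantile normalization and -3.09 and 2.93 with median-of-ratios scaling, for ovule against leaf and fiber against ovule.

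The same rule was turned to the remaining pairs of tissues to see how far the 150 models differ from their counterparts. The score at rank 150 was 3.17 for leaf and fiber against ovule, 8.35 for ovule and fiber against leaf, and 11.2 for leaf and ovule against fiber. Scores above 5 were reached by 68, 318 and 594 models, out of 5042, 6353 and 6516 ranked. The order of the scores at rank 150 was the same with quantile normalization (4.32, 7.12 and 9.61) and with median-of-ratios scaling (4.58, 6.25 and 10.3). Models at 0 in both libraries of the low tissue numbered 4, 26 and 15 in the respective lists of 150. The differences between the lists were not tested.

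**Figure D5:**
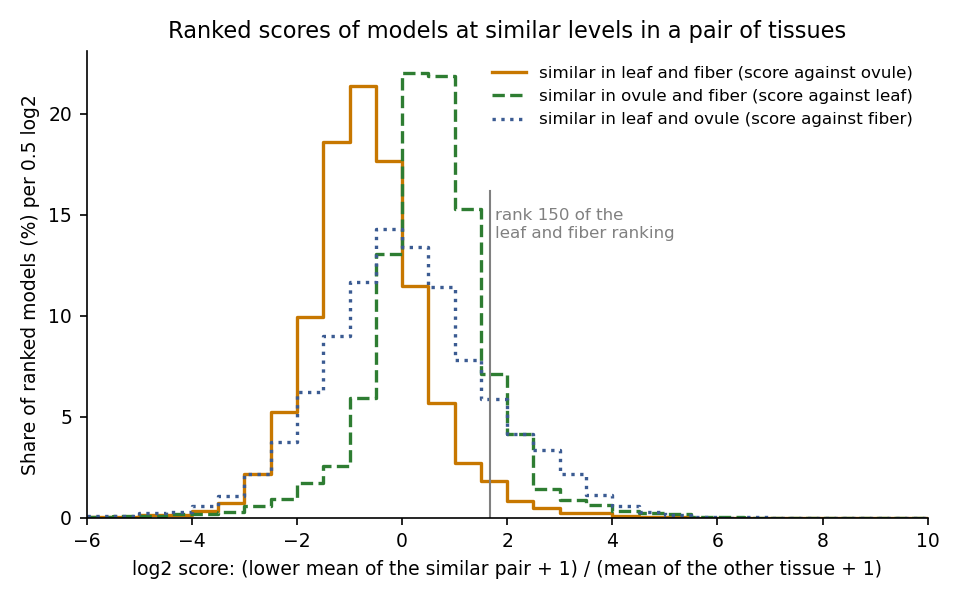
Share of ranked models in steps of 0.5 of the log2 score, for models similar in leaf and fiber (solid), in ovule and fiber (dashed) and in leaf and ovule (dotted). On the deposited scale, the solid curve peaks to the left of the others, with a median score of 0.616 against 1.46 and 1.0102. The grey line marks the score of 3.17 at rank 150 of the leaf and fiber ranking.

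The prefix of the identifiers was not used by the rule. Cotton_A models were 95 of the 150 (63.3%) and Gorai models 55 (36.7%), where Cotton_A models made up 50.7% of the 5042 models and 51.9% of the table. Lists of the other pairs of tissues also held more Cotton_A models, with 58.0% for ovule and fiber and 62.7% for leaf and ovule. A higher share of Cotton_A models thus appeared in each of the 3 lists. Cotton_A and Gorai members had median levels of 19.2 and 17.6 FPKM in leaf, 2.29 and 1.56 FPKM in ovule, and 23.7 and 15.5 FPKM in fiber, with median scores of 4.64 and 5.10.

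Gorai identifiers carry a number before and after the letter G, and members were spread over this numbering. Of the 13 values of the number before G, 12 had a member, with the most (9 members) at 007 and none at 005, which held 187 of the 5042 models. Within 10 models of each other lay 4 of the 55 Gorai members (7.27%), against 4 of 63 and 2 of 56 in the lists of the other pairs. Gorai.006G130200 had 13.2 and 14.2 FPKM in leaf, 2.29 and 2.33 FPKM in ovule, and 16.4 and 16.4 FPKM in fiber. Gorai.006G130500, which is 3 models further on, had 16.8 and 18.4 FPKM in leaf, 3.16 and 2.70 FPKM in ovule, and 17.9 and 18.8 FPKM in fiber. The levels of this pair were alike in each tissue.

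The pair Gorai.007G261000 and Gorai.007G262000, 10 models apart, differed in level. The former had 11.1 and 9.84 FPKM in leaf, 0.543 and 0.354 FPKM in ovule, and 9.88 and 9.01 FPKM in fiber. The latter had 38.3 and 39.2 FPKM in leaf, 4.12 and 4.50 FPKM in ovule, and 32.6 and 33.4 FPKM in fiber. In both models leaf lay slightly above fiber by the mean. Whether the numbering follows positions on a chromosome was not tested.

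Consecutive Cotton_A numbers occurred in 4 of 95 members, against 0 of 87 and 0 of 94 in the other lists, and were looked at only after the data had been seen. Cotton_A_33738 had 201 and 214 FPKM in leaf, 34.4 and 35.2 FPKM in ovule, and 409 and 395 FPKM in fiber. Its neighbour Cotton_A_33739 had 219 and 209 FPKM in leaf, 16.6 and 20.004 FPKM in ovule, and 158 and 149 FPKM in fiber. Leaf levels of this pair were close, while fiber was above leaf in the former and below it in the latter. For fiber against leaf, limma gave adjusted p of 1.30e-05 for Cotton_A_33738 and 0.00419 for Cotton_A_33739. Cotton_A_16822 and Cotton_A_16823 stood at 17.99 and 18.4 FPKM against 12.3 and 9.45 FPKM in fiber, with leaf levels of 13.3 and 12.9 FPKM and of 15.2 and 14.2 FPKM. For Cotton_A_16822 and Cotton_A_16823, limma gave adjusted p of 0.189 and 0.124 between fiber and leaf. The rule limited the fiber to leaf ratio and these pairs were picked afterwards, so nothing is read from these p-values. Ovule levels were 1.62 and 0.407 FPKM in Cotton_A_16822 and 1.17 and 2.19 FPKM in Cotton_A_16823. Reads shared between similar neighbours would be lost to both, because uniquely mapped reads alone were counted.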

How the data were processed

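The authors deposited FPKM values, 1 column per library, from strand-specific single-end reads. Per the labels, CASAVA 1.8, TopHat and Cufflinks were used. The study's methods state that uniquely mapped reads were kept and name the TM-1 genome, although the identifiers are of other models. Values of near-identical copies are thus uncertain. FPKM is a share of a library's total. Sample groups came from titles.

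Fits across all models used limma 3.58.1 in R 4.3.3 on log2(FPKM + 1), which understates changes of low values, with 1 fit over 6 libraries, a variance trend, robust moderation and Benjamini-Hochberg adjustment over 42214 models with mean FPKM of at least 0.5. The procedure was tested on simulated data. Reads were recovered as the smallest whole numbers in the ratios between libraries (tolerance 0.05 of a read, chance share of at most 0.001, at least 0.005 FPKM per read). Depth enters only through them.

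Models named were the 2 highest ranks of each prefix, rank 150 and the next, extremes of fiber to leaf ratio, level and reads, and the closest Gorai neighbours. Members and lists were chosen with earlier results of these data known. Alternatives covered pseudocounts, minimums, scaling, the study's rule, a replicate block and leaving out libraries. Sequences were not used here.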

Additional observations from a re-analysis of the deposited data

How the results depend on the processing

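Of 80 values recomputed under alternatives, 11 moved, for counts by over 1.5 times. The choice of the 150 models all but fixes their calls against the ovule, so those calls are no sign of stability. Other ranking rules kept between 105 and 139 of the 150 models, with the fewest at a minimum of 10 FPKM and at a leaf to fiber ratio within 1.5. Those cuts exclude members outright. Only 105 of the 150 lay within a ratio of 1.5, and 42 had a leaf or fiber mean under 10 FPKM. Losses under these cuts therefore say little about the stability of the ranking. Leaving out a library kept 137 to 139. Models called lower in ovule than leaf numbered 109 by the study's rule with an unadjusted P, where 4769 of all 42214 tested were called. Those called higher in fiber than ovule numbered 116, where 5719 of all tested were. Models called between fiber and leaf rose from 0 to 5 with quantile normalization, where 22137 of all 42350 tested were called. They rose to 8 with median-of-ratios scaling, where 22087 of all 42219 tested were. The Cotton_A share was 76.0% over models with recovered reads worth at most 1 FPKM per read, where Cotton_A models were 70.4% of those ranked, against 63.3% and 50.7% as reported. It was 56.7% at a minimum of 1 FPKM, where 47.9% of those ranked were Cotton_A models. At a minimum of 10 FPKM, with no minimum and at a ratio within 1.5 it was 57.3%. Cotton_A models were 53.0%, 46.7% and 50.3% of those ranked under these settings. Without a library, the share was 59.3% to 64.0%. Within 3 models, 2 Gorai members had a neighbour.

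Scaling was the alternative tried on the models at similar leaf and fiber levels, and it was chosen after the data had been seen. Their median score went from 0.616 to 0.786 (quantile) and 0.923 (median of ratios). Those lower in the ovule than in both other tissues numbered 586 and 710, and those higher numbered 436 under the latter scaling.

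With the replicate number as a block, 140 and 139 of the 150 models were called against the ovule, and 0 between fiber and leaf. Of all 42214 tested models, 6596, 7072 and 21402 were called in these comparisons. Replicate differences correlated between tissues at -0.0562, -0.0589 and 0.050, so no strong effect was shared by libraries of the same number. Whether the libraries were paired by plant or harvest cannot be told from this.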

Other observations

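Recovery of whole reads differed by prefix. Among the 150 models it succeeded for 94 of 95 Cotton_A members (98.9%) and 26 of 55 Gorai members (47.3%), and among the 5042 models at similar leaf and fiber levels for 95.3% of 2557 Cotton_A and 39.2% of 2485 Gorai models. The cause was not tested. Statements on few reads therefore cover nearly all Cotton_A members but fewer than the full set of Gorai members.

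Within the 150 models, the ovule replicates scattered more than those of leaf and fiber. The median SD between replicates on the log2(FPKM + 1) scale was 0.15 in ovule, 0.087 in leaf and 0.081 in fiber, and over the 5042 models it was 0.067, 0.080 and 0.067. The low ovule values of the 150 models, which the rule chose, move with this.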
